A study of Mus musculus with 4 samples.

Results

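The 8 troponin genes of the mouse, Tnnc1, Tnnc2, Tnni1, Tnni2, Tnni3, Tnnt1, Tnnt2 and Tnnt3, were examined in cultured primary myoblasts of wild type (WT) and Tet2 knockout (Tet2 KO) mice. They were chosen by gene symbol, and each had 1 row among the 24445 genes of the expression table. Both groups were on the C57BL/6 background. Tet2 KO mice carried a constitutive deletion of Tet2 exon 3, and WT mice served as the control. The study's methods give male mice of 8 to 10 weeks unless stated otherwise. Muscle stem cells (satellite cells) were sorted as CD34 and integrin alpha 7 positive cells without the markers CD45, CD11b, CD31 and Sca1, and were grown on collagen in proliferation medium for at least 3 days, by which time the labels call them MyoD+ myoblasts. The labels name hindlimb muscle as the source, and the study's methods name the tibialis anterior. There were 2 libraries in each group, and how many animals each came from was not given in the sources used here.

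Troponin is the calcium switch of striated muscle. The complex sits on the thin filament with actin and tropomyosin and holds one copy of each of its subunits: troponin C binds calcium, troponin I inhibits the contact between actin and myosin, and troponin T anchors the complex to tropomyosin. Different genes supply each subunit in slow skeletal, fast skeletal and heart muscle. Tnni1 and Tnnt1 are the slow skeletal genes, Tnnc2, Tnni2 and Tnnt3 are the fast skeletal genes, Tnni3 and Tnnt2 are the cardiac genes, and Tnnc1 serves both slow skeletal muscle and heart. Developing skeletal muscle is known to express several of these isoforms side by side, including Tnnt2, and adult fibres keep those that match their type.

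Expression was given as FPKM (fragments per kilobase of transcript and of library size), with 1 value per gene and group. No value per library was used, so no replicate error stands beside any value below, no test was made, and a difference says how the pooled values of the groups differ without saying how far the animals of a group lay apart. Each log2 ratio is log2((Tet2 KO FPKM + 1) / (WT FPKM + 1)), which is negative where Tet2 KO was lower and understates differences of genes with low values. A gene was counted as lower or higher when it differed by at least 2-fold on this scale and had a mean FPKM of at least 1 over both groups, which 11692 genes reached.

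In the table as a whole, the median log2 ratio was -0.0044, and 12 housekeeping genes had a median of 0.0046, with all 12 within 2-fold. Tet2 itself had 6.64 FPKM in WT against 5.79 FPKM in Tet2 KO. Since this value is a sum over the gene and not over the deleted exon, it checks no label. Of the 6 markers of myoblasts, all were expressed in both groups and all were within 2-fold, with a median log2 ratio of -0.10 and a range from -0.27 to -0.02. The highest of them were Des, the gene of the muscle intermediate filament desmin, with 449 FPKM in WT against 372 FPKM in Tet2 KO, and Myod1, the gene of MyoD, with 336 and 313 FPKM in the same order. Markers of leukocytes, which the sort was to remove, moved with the groups. Their summed level was 112 FPKM in WT against 442 FPKM in Tet2 KO, and all 10 were above 0 in both groups. At least 2-fold higher in Tet2 KO were 8 of the 10, where 2.08% of all genes above the filter were. The other 2, Cd68 and Laptm5, had Tet2 KO values of 211% and 215% of the WT level. They are within 2-fold only through the pseudocount. The markers of endothelial cells were low, the highest being Pecam1 at 1.63 FPKM in WT against 1.48 FPKM in Tet2 KO. The 5 fibroblast markers above the filter had log2 ratios from 0.11 to 0.95, none past 2-fold on this scale, and the highest by level were Col3a1 and Dcn. Dcn had 3.15 FPKM in WT against 7.04 FPKM in Tet2 KO. Its Tet2 KO value was 223% of the WT level, so Dcn is within 2-fold only through the pseudocount. Of the 6 smooth muscle markers, 3 did not pass the filter. These were Myh11, Cnn1 and Lmod1, with at most 0.265 FPKM in either group. Of those that passed, Acta2 had 236 FPKM in WT against 146 FPKM in Tet2 KO, a log2 ratio of -0.69. Smtn had -0.50, and Tagln, named after its value was seen, had 0.14. In such bulk samples, fewer cells of a type and less RNA per cell cannot be told apart.

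The base sequence before the start of 4 troponin genes is shown because the study concerns MyoD and myogenin, transcription factors that bind the E-box CANNTG, and because these genes span the range of differences described below, from Tnnc2, which differed most, to Tnnt1, which differed least among the troponins above the filter. Each line holds the 250 bases before an annotated start, read from 5′ to 3′ on the strand of the gene, from RefSeq in the build GRCm38.p6, with E-boxes in capitals. The windows lie at chr2:164779735-164779984 on the minus strand for Tnnc2, chr1:135799171-135799420 on the plus strand for Tnni1, chr1:135836084-135836333 on the plus strand for Tnnt2 and chr7:4515976-4516225 on the minus strand for Tnnt1.
Tnnc2: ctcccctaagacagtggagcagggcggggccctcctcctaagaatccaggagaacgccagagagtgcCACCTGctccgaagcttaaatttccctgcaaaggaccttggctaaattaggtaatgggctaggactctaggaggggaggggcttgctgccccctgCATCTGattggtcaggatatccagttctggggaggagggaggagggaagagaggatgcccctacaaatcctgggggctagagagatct
Tnni1: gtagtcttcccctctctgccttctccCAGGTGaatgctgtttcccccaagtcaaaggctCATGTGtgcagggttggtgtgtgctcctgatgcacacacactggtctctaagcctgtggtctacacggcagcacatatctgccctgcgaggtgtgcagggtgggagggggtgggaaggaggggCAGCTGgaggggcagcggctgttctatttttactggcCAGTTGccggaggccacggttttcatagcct
Tnnt2: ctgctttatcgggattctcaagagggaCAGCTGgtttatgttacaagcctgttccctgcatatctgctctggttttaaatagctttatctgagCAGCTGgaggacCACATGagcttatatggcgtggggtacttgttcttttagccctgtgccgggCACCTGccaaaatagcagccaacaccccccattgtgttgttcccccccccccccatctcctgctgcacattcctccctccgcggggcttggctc
Tnnt1: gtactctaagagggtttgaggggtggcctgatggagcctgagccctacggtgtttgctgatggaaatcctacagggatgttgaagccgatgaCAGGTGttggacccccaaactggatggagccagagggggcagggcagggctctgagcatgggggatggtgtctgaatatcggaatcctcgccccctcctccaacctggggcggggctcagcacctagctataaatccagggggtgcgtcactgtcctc

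RefSeq windows were matched for 6 of the 8 genes. Tnni2 and Tnnt3 are named only. Where a gene had several windows, the one whose start lay nearest the 5′ end of the deposited interval was used, and in all 6 genes the start matched that end to the base when the window was found in mm9. All 6 windows held at least 1 E-box, as did 66.2% of all 32851 windows of the same length, and the median over all windows was 1. Tnni1 and Tnnt2 held 4 E-boxes each, Tnnc1 and Tnnc2 held 2 each, and Tnnt1 and Tnni3 held 1 each. Tnni1 and Tnnt2 each had another window, with its start 90 and 655 bases from the deposited end. Those windows held 2 and 1 E-boxes, so these counts depend on the start chosen. The E-box CAGCTG, a subset of the former, occurred in the windows of Tnni1 and Tnnt2, against 13% of all windows. CATTCC, the M-CAT motif of Tead factors, was found on either strand in the windows of Tnnt2 and Tnnc1, against 12.6% of all windows. TATAAA was found in the window of Tnnt1, against 12.4% of all windows. The MEF2 motif and the CArG box, likewise searched on both strands, occurred in none of the 6 windows and in 2.92% and 1.47% of all windows. These matches describe letters in the windows and not binding.

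Transcripts of 7 of the 8 troponin genes were present well above the filter, and all 7 were lower in Tet2 KO than in WT. Of these, 6 were at least 2-fold lower, where 1.21% of all 11692 genes were; above a mean of 50 FPKM, a limit chosen after the values were seen, 1.05% of 1896 genes were lower and 0.633% higher. Tnnt1 was lower by less than 2-fold, and Tnni3 did not pass the filter. The median log2 ratio of the 7 was -1.19, with a range from -1.92 to -0.53. The summed level of the 8 genes was 1715 FPKM in WT against 799 FPKM in Tet2 KO, so Tet2 KO held 46.6% of the WT level. Troponin T was the largest of the subunit sums in both groups and the one with the smallest difference.

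**Figure D1:**
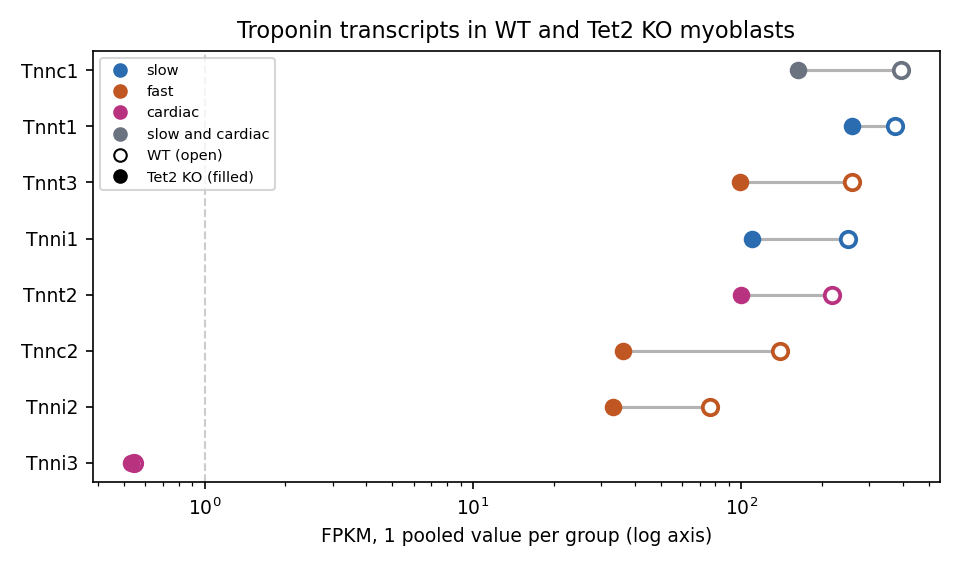
FPKM of the 8 troponin genes on a log axis, with an open point for the pooled WT value and a filled point for the pooled Tet2 KO value of each gene, coloured by isoform; the dashed line marks 1 FPKM. The filled point lies to the left of the open one in 7 genes, from the narrowest gap, 259 against 375 FPKM for Tnnt1, to the widest, 36.1 against 139.7 FPKM for Tnnc2, while both points of Tnni3 lie near 0.5 FPKM.

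Troponin C, the calcium sensor, showed the largest difference of the subunits. Tnnc2, the fast gene, had 139.7 FPKM in WT against 36.1 FPKM in Tet2 KO, and its log2 ratio of -1.92 left Tet2 KO with 25.8% of the WT level. Of the 11692 genes above the filter, 11 had a lower ratio than Tnnc2. Tnnc1, the slow and cardiac gene, had 395 FPKM in WT against 162 FPKM in Tet2 KO, a log2 ratio of -1.28. It was the most abundant troponin transcript in WT and the second in Tet2 KO. The sum of both genes was 534 FPKM in WT against 198 FPKM in Tet2 KO. Tnnc1 exceeded Tnnc2 by a factor of 2.82 in WT and 4.49 in Tet2 KO, so the share of the fast gene in troponin C was 26.1% in WT and 18.2% in Tet2 KO.

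Troponin I, the inhibitory subunit, came almost wholly from the slow and fast skeletal genes. Tnni1, the slow gene, had 251 FPKM in WT against 109.5 FPKM in Tet2 KO, a log2 ratio of -1.19. Tnni2, the fast gene, had 76.5 FPKM in WT against 33.4 FPKM in Tet2 KO, a log2 ratio of -1.17. The slow and fast genes were thus lower by nearly the same factor, with 43.7% and 43.6% of the WT level left. Their ratio was 3.28 in both groups, and the fast share of troponin I was 23.3% in both. Tnni3, the cardiac gene whose product is the familiar heart-specific troponin I, had 0.543 FPKM in WT against 0.532 FPKM in Tet2 KO. It made up 0.371% of troponin I in Tet2 KO and 0.166% in WT, and its log2 ratio was -0.01 at a level below the filter.

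Troponin T, the tropomyosin-binding subunit, was the one in which the log2 ratios of the isoforms above the filter lay farthest apart. Tnnt3, the fast gene, had 259 FPKM in WT against 98.8 FPKM in Tet2 KO, a log2 ratio of -1.38. Tnnt2, the cardiac gene that developing skeletal muscle also uses, had 218 FPKM in WT against 99.6 FPKM in Tet2 KO, a log2 ratio of -1.13. Both were at least 2-fold lower. Tnnt1, the slow gene, had 375 FPKM in WT against 259 FPKM in Tet2 KO, so 69.0% of the WT level remained and the log2 ratio was -0.53. This was still a low ratio within the table, where 3.22% of the genes above the filter had a lower one. In WT, Tnnt1 exceeded Tnnt3 by a factor of 1.45, and in Tet2 KO by a factor of 2.62. Its share of troponin T was 44.0% in WT and 56.6% in Tet2 KO, 12.6 percentage points apart. The share of Tnnt3 was 30.4% in WT and 21.6% in Tet2 KO, and that of Tnnt2 was 25.6% and 21.8%.

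**Figure D2:**
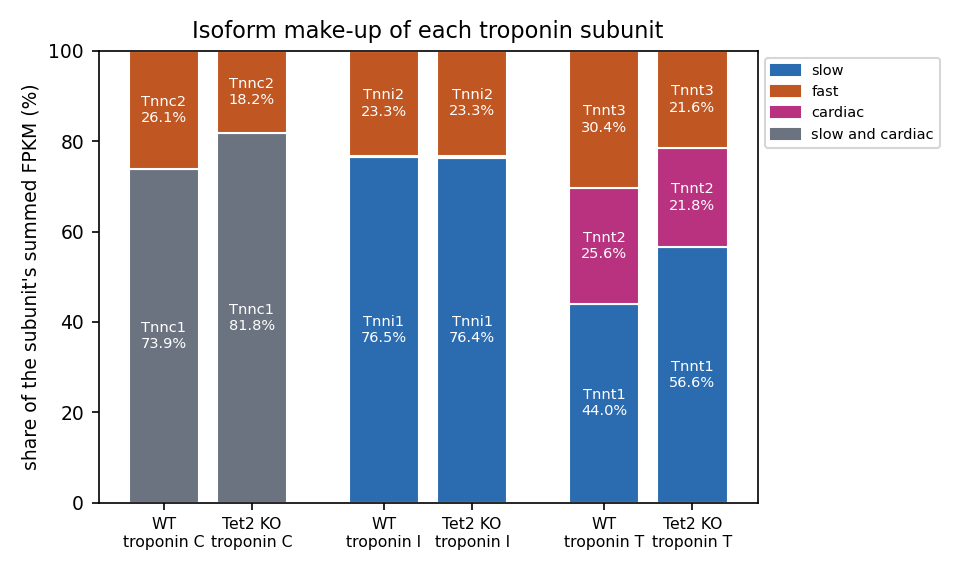
Stacked bars of the share of each gene in the summed FPKM of its subunit, in percent, for WT and Tet2 KO, coloured by isoform; Tnni3, below 1% of troponin I, is too thin to be seen. The fast share is 26.1% in WT and 18.2% in Tet2 KO for troponin C, 23.3% in both for troponin I, and 30.4% and 21.6% for troponin T.

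Across the subunits, the slow, fast and cardiac classes were compared by their summed FPKM. Tnnc1, which serves both slow muscle and heart, was kept apart from these classes. The 3 fast genes had 476 FPKM in WT against 168 FPKM in Tet2 KO, a log2 ratio of -1.49, and all 3 were at least 2-fold lower. The 2 slow genes had 626 FPKM in WT against 369 FPKM in Tet2 KO, a log2 ratio of -0.76, with Tnni1 at least 2-fold lower and Tnnt1 not. The 2 cardiac genes had 219 FPKM in WT against 100.1 FPKM in Tet2 KO, a log2 ratio of -1.12 that rests almost wholly on Tnnt2. As a share of all troponin transcripts, the fast genes took 27.7% in WT and 21.1% in Tet2 KO. The slow genes took 36.5% in WT and 46.1% in Tet2 KO, and the cardiac genes 12.8% and 12.5%. Tnnc1 alone took the remaining 23.0% in WT and 20.3% in Tet2 KO, with a log2 ratio of -1.28. A slow sum that includes Tnnc1 was not computed, and the size of the slow and fast contrast depends on where Tnnc1 is placed. The class averages hide a spread within each class. Tnni1 and Tnnt1, both slow, had log2 ratios of -1.19 and -0.53, and Tnni2, the fast gene closest to WT, at -1.17, lay beside the slow Tnni1 rather than beside the fast Tnnc2. As no errors were available, no order is given among Tnni1, Tnni2 and Tnnt2, whose log2 ratios run from -1.19 to -1.13.

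The complex holds its subunits in equal numbers, whereas the transcripts did not. FPKM is scaled to transcript length, so levels of different genes can be set side by side. Troponin T had 853 FPKM in WT against 534 FPKM for troponin C and 328 FPKM for troponin I. In Tet2 KO the sums were 457, 198 and 143 FPKM in the same order. The log2 ratios of these sums were -0.90 for troponin T, -1.43 for troponin C and -1.19 for troponin I. The FPKM of troponin T over that of troponin C was 1.60 in WT and 2.31 in Tet2 KO, and over that of troponin I it was 2.60 and 3.19. By level, the order in WT was Tnnc1, Tnnt1, Tnnt3, Tnni1, Tnnt2, Tnnc2, Tnni2 and Tnni3. In Tet2 KO it was Tnnt1, Tnnc1, Tnni1, Tnnt2, Tnnt3, Tnnc2, Tnni2 and Tnni3. By value, Tnnt3 stood below Tnni1 and Tnnt2 there and above both in WT. However, Tnnt3 and Tnni1 were close in WT, at 259 and 251 FPKM. In Tet2 KO, the ratio of Tnnt2 to Tnnt3 was 1.01. As no errors were available, no order can be given within these close pairs. Among all genes of the table, Tnnc1 ranked 229th by level in WT and 562nd in Tet2 KO, while Tnnt1 ranked 236th and 336th.

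Other genes of the thin filament were taken from a list of 11, of which 9 passed the filter. All 9 were lower in Tet2 KO, with 3 of them at least 2-fold lower, none higher, and a median log2 ratio of -0.86. Among the 11692 genes above the filter, 5989 had a log2 ratio below 0, 1.21% were at least 2-fold lower and 2.08% higher. Those 3 were Acta1, the actin of adult skeletal muscle, with 629 FPKM in WT against 207 FPKM in Tet2 KO, and Lmod2 and Lmod3, leiomodins that promote actin filament growth, with log2 ratios of -1.50 and -1.44. The remaining 6 had log2 ratios from -0.92 to -0.11, the tropomyosin gene Tpm3 being nearest to 0.

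Lists of fast and slow fibre genes were set beside the fast and slow troponins. Of all genes above the filter, 1.21% were at least 2-fold lower. Of the 10 fast fibre genes, 7 passed the filter, and all 7 were at least 2-fold lower, with a median log2 ratio of -1.29. They included the fast myosin heavy chain Myh1, with 77.1 FPKM in WT against 20.5 FPKM in Tet2 KO, and the calcium store protein Casq1, with 9.59 and 1.76 FPKM. Mylpf and Myl1, fast myosin light chains, had log2 ratios of -1.30 and -1.21. Actn3, Atp2a1 and Myh2 were the other fast genes past 2-fold, at -1.19, -1.29 and -1.26. Myh2 was low, with 2.02 FPKM in WT against 0.258 FPKM in Tet2 KO, and passed the filter only through WT. With a filter at 5 FPKM, the count of fast fibre genes at least 2-fold lower was 6. Of the 8 slow fibre genes, 5 passed, and 3 of these were at least 2-fold lower, with a median of -1.04. These were Myh7, the slow myosin heavy chain, with 30.4 FPKM in WT against 11.4 FPKM in Tet2 KO, Mybpc1 at a log2 ratio of -1.04, and Casq2 at -1.57. The other 2, Atp2a2 and Tpm3, which many cell types express, had log2 ratios of -0.11 each. All 4 embryonic sarcomere genes were at least 2-fold lower, with a median of -1.43, and Myh8, Myl4 and Myl6b had log2 ratios of -1.73, -1.31 and -1.28. Myh3, the embryonic myosin heavy chain, had 313 FPKM in WT against 105 FPKM in Tet2 KO. The 10 genes of heart identity were all below the filter, summing to 0.570 FPKM in WT against 0.565 FPKM in Tet2 KO, and their highest values, for Nppb and Myh6, were 0.271 and 0.242 FPKM. Tnnt2 at 99.6 FPKM or more stood in samples where these 10 genes and Tnni3 were below 1 FPKM. Other genes that heart also uses, such as Tnnc1 and the cardiac actin Actc1, were well above the filter.

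**Figure D3:**
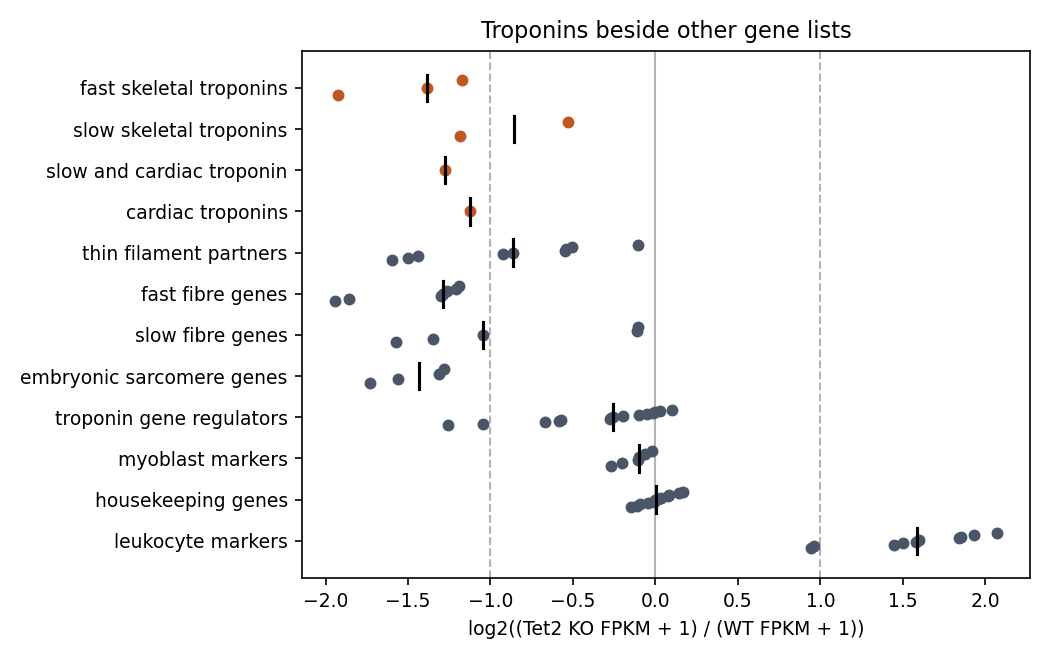
Log2 ratio of Tet2 KO over WT, with 1 added to each FPKM, for each gene above the filter in the troponin classes (orange) and other lists (grey); black bars mark list medians and dashed lines a 2-fold difference. The troponins lie between -1.92 and -0.53, the 7 fast fibre genes all lie left of the lower dashed line, the myoblast markers lie between -0.27 and -0.02, and the leukocyte markers lie to the right, at a median of 1.59.

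Leukocyte transcripts were thus higher in the same comparison in which the troponins were lower, with a median log2 ratio of 1.59 over 10 of 10 markers above the filter, and their part in the troponin values was not tested. The defining markers Ptprc, which encodes CD45, and Itgam, which encodes CD11b, were at 0 in neither group, with 5.67 and 10.1 FPKM in Tet2 KO and 1.36 and 2.09 FPKM in WT. The other 6 markers past 2-fold, Lyz2, Ctss, Tyrobp, Csf1r, Fcer1g and Adgre1, had log2 ratios from 1.45 for Adgre1 to 2.07 for Lyz2. Adgre1 was low, with 0.712 FPKM in WT against 3.67 FPKM in Tet2 KO, and passed the filter only through Tet2 KO.

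The troponin I and troponin T genes of mammals lie in pairs on the chromosomes, and this arrangement was visible in the table. In the mm9 annotation GENCODE vM1, Tnni1 lies on chromosome 1 from 137679642 to 137707566 and Tnnt2 from 137737452 to 137748837, both on the plus strand and 29.9 kb apart. Their log2 ratios were -1.19 and -1.13. Tnni2 lies on chromosome 7 from 149627713 to 149630315 and Tnnt3 from 149684741 to 149701914, both on the plus strand and 54.4 kb apart, with log2 ratios of -1.17 and -1.38. Tnnt1, from 4456172 to 4467984, and Tnni3, from 4469907 to 4475831, share the minus strand of the other end of chromosome 7 and are 1.92 kb apart. In this pair Tnnt1 had 259 FPKM or more in either group, while Tnni3 was below 1 FPKM. The troponin C genes lie alone, Tnnc1 on the plus strand of chromosome 14 from 32021498 to 32024915 and Tnnc2 on the minus strand of chromosome 2 from 164602661 to 164605467.

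Genes around the troponins were examined to see whether the lower level extended along the chromosome. Within 100 kb of a troponin gene the table held 44 other genes, of which 25 passed the filter. None of the 25 was past 2-fold in either direction, where 1.21% of all genes were lower and 2.08% higher. The log2 ratios of the 25 ran from -0.30 for H19, an imprinted noncoding RNA, to 0.25 for Smim4, with a median of 0.01. The 19 genes below the filter were not counted. Their log2 ratios ran from -0.55 for Nctc1, 28.6 kb from Tnnt3, to 0.76 for Stab1 near Tnnc1. Nctc1 had 0.709 FPKM in WT against 0.168 FPKM in Tet2 KO. Syt8, 2.07 kb from Tnni2, had 0.753 and 0.242 FPKM in the same order. Distances here are between the deposited intervals. Beside Tnnc2, Ube2c, a mitotic ubiquitin-conjugating enzyme gene 4.26 kb away, had 104.5 FPKM in WT against 106.5 FPKM in Tet2 KO. In GENCODE vM1, a transcript of Ube2c reaches into Tnnc2, as described below. Nisch, 1.49 kb before Tnnc1, had a log2 ratio of -0.13. Lsp1, a leukocyte-associated actin-binding protein gene that lies between Tnni2 and Tnnt3, had 55.7 FPKM in WT against 48.6 FPKM in Tet2 KO, a log2 ratio of -0.19, and Prr33 in the same interval had -0.29. The remaining genes that passed were Acot8, Bap1, Csrp1, Ctsa, Ctsd, Dnttip1, Ifitm10, Mrpl23, Neurl2, Nt5dc2, Pbrm1, Pcif1, Phf7, Phlda3, Ppp1r12c, Rdh13, Snx21, Zswim1 and Zswim3, with log2 ratios from -0.22 for Neurl2 to 0.22 for Ctsa.

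**Figure D4:**
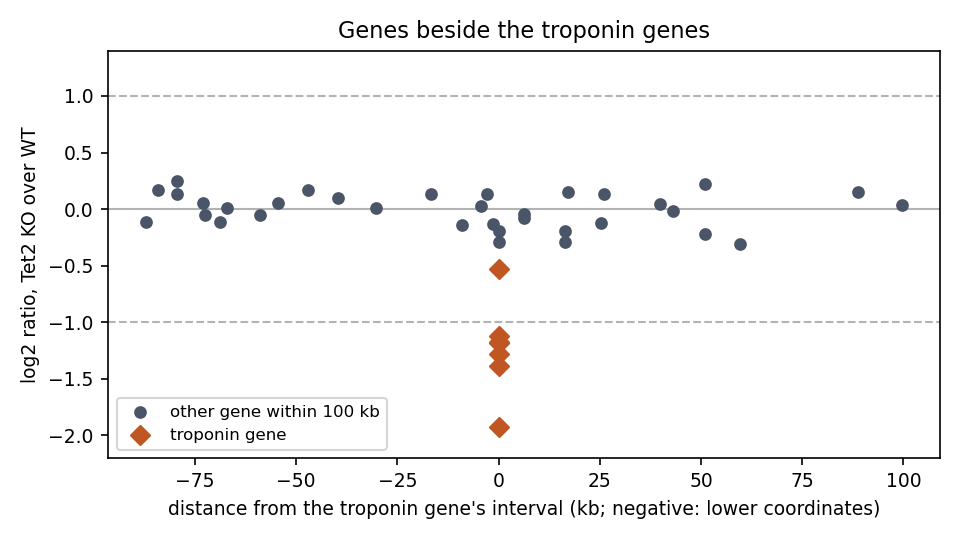
Log2 ratio of Tet2 KO over WT for genes above the filter within 100 kb of a troponin gene (grey), against the distance in kb from that gene, with the 7 troponin genes above the filter as orange diamonds at 0; a gene near several troponin genes is drawn once for each. The grey points lie between -0.30 and 0.25, while the diamonds lie between -1.92 and -0.53.

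Several features of the gene models bear on these values. The deposited interval of Tnnt3, from 149646717 to 149701914, was a merged one that Lsp1 and Prr33 shared, although each had a value of its own. In GENCODE vM1, a transcript of Ube2c on the opposite strand overlapped Tnnc2 by 592 of its 800 exonic bases, and the library kit as named in the labels does not mark strand, so reads there cannot be told apart by strand. Of the others, 86 exonic bases of Tnni3 overlapped a second gene, Tnnc1 had a second and longer model under the same name, and the remaining 5 overlapped none. The longest run of bases shared by coding transcripts of any pair of members was 22, between Tnni1 and Tnni2, and the coding sequences within a subunit were 68.5% to 72.1% identical over aligned bases. Tnnt3 and Tnnt1 carried the most annotated transcripts, 24 and 12, with 18 and 14 exons in the longest coding one, while Tnnt2 carried 4 and the troponin I genes 6 to 8. The values are sums over a gene, and differences between splice forms were not analysed here.

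For each troponin gene, the genes whose pair of group values lay nearest were found by Euclidean distance on the log2(FPKM + 1) scale among genes above the filter. With only the 2 group values to compare, likeness here means a similar level and a similar ratio. Tnni1, Tnnt2 and Tnnt3 were among the 3 nearest genes of one another, at distances of 0.16 to 0.25, with Myh3 or Hspb8, a small heat shock protein gene, as the remaining one. Tnni2 lay nearest to Pdlim3, a gene of the Z-disc, at 0.05, then to Actn3 and Cav3, the muscle caveolin gene. Tnnc1 lay nearest to Myl1 at 0.21, followed by Actc1, the cardiac actin that developing muscle expresses, and Ctsl. Tnnc2 stood farther from any gene, with Slpi at 0.55, Cav3 at 0.72 and Ttn at 0.73. The nearest genes of Tnnt1 were Rpl21, S100a10 and Gm6644, with log2 ratios of -0.23 to -0.28, and none of these 3 is a sarcomere gene. Tnni3 lies below the filter that the near genes had to pass. Those found for it, Jazf1, Gcnt7 and Fstl3 at 0.54, lay at the edge of the filter. The filter thus set this outcome, and genes at the level of Tnni3 were not searched.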

How the data were processed

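The data are RNA-seq of 4 libraries, 2 of WT and 2 of Tet2 KO primary myoblasts. The authors trimmed and filtered paired reads, aligned them to mm9 with TopHat2 2.0.13 and estimated FPKM with Cuffdiff 2.2.1, versions as in the study's methods and the submitters' processing notes; the gene annotation was not given in the sources used here. The deposited table holds 1 FPKM value per gene and group, read here as the authors' value over the libraries of the group; how they were combined is not stated. Its remaining columns, the authors' fold change, test statistic, p-value, q-value and significance call of the same comparison, were not used. Log2 ratios were computed at a pseudocount of 1 and described without a test, with 2-fold at a mean FPKM of at least 1 as the limit. Depth is unknown, since FPKM gives no counts; the table totals were 566910 FPKM in WT against 565529 FPKM in Tet2 KO.

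Genes were named by rule: all members, Tet2, listed genes past 2-fold (or the 2 highest where none was), genes above the filter within 100 kb, and the 3 nearest genes by level; Tpm3, Atp2a2, Nppb and Myh6, as ends of a range or examples, and Nisch, Ube2c, Lsp1 and Prr33 among the neighbours were picked out after their values were seen. Myh11, Cnn1, Lmod1, Cd68, Laptm5, Nctc1 and Syt8 were likewise named after their values were seen. The members, lists and rules were chosen with earlier results of these data known. The alternatives tried were other pseudocounts, filters and folds, TPM scaling and median centring. Deposited starts count from 0, and 1 was added. Gene models came from GENCODE vM1, on the same build as the table (mm9). Coding identity came from global pairwise alignment of the longest coding sequences. The fold call was run on simulated data with planted changes larger than the limit. This checks the code and says nothing about replicate error or about differences near the limit. Python 3.11.15, numpy 2.4.6, pandas 2.3.3 and matplotlib 3.10.9 were used.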

Additional observations from a re-analysis of the deposited data

How the results depend on the processing

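No paired analysis was possible because the table holds 1 pooled value per group; no library could be left out either. The count of 6 troponin genes at least 2-fold lower was the same with a pseudocount of 0.1 or none, TPM scaling, median centring, no filter, a filter at 5 FPKM and a limit of 1.5-fold; with a limit of 3-fold it was 1, Tnnc2. The log2 ratios of the class and subunit sums kept their direction and their side of 2-fold under the alternatives run for each. The isoform shares kept the direction of their difference except the fast share of troponin I, whose difference (Tet2 KO minus WT) went from -0.08 to 0.03 percentage points with 1 added to each gene. Without a filter on low values, the median log2 ratio of the slow fibre genes went from -1.04 to -0.36. Without Tnnt1, an alternative chosen after seeing the data, the sum of the other troponins had a log2 ratio of -1.31 against -1.10 with it. At 1.5-fold the thin filament count went from 3 to 5. At 3-fold the counts were 1 for thin filament partners, 2 for fast fibre genes (from 7), 0 for slow fibre genes (from 3) and 1 for embryonic sarcomere genes (from 4). TPM scaling took the count of neighbouring genes past 2-fold from 0 to 1, by bringing Stab1 past both the filter and the 2-fold limit. Stab1, a macrophage scavenger receptor gene, had 0.358 FPKM in WT against 1.31 FPKM in Tet2 KO. Its log2 ratio was 0.76 before the scaling, which raises the values and so lessens the effect of the pseudocount. Stab1 was picked out after its value was seen. The depth is unknown and limits Tnni3 and the heart identity genes most.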

Other observations

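Transcription factors that are known to act on troponin genes were described as values. Of the 15 in the list, all passed the filter, and 2 were at least 2-fold lower in Tet2 KO, where 1.21% of all genes above the filter were; the median log2 ratio was -0.26. These were Myog, the gene of myogenin, with 554 FPKM in WT against 268 FPKM in Tet2 KO, and Mef2c, with 27.8 and 11.1 FPKM. Among those within 2-fold on the scale used here, Sox6, known as a repressor of slow fibre genes, had the lowest log2 ratio, -0.67. Its values were low, 2.04 FPKM in WT against 0.914 FPKM in Tet2 KO. Tet2 KO held 44.7% of the WT level, so Sox6 is within 2-fold only through the pseudocount. Sox6 and the next gene were picked out after their values were seen. Tead4, a factor of the M-CAT motif, had -0.58. Tnni3k, a kinase gene named for its binding to cardiac troponin I and not a troponin itself, had 0.0436 FPKM in WT against 0.1003 FPKM in Tet2 KO.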
